A study of Mus musculus with 8 samples.

Results

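The genes described here are 10 genes of the kidney's intercalated cells: the proton pump subunit genes Atp6v1b1, Atp6v0d2, Atp6v0a4, Atp6v1g3 and Atp6v1c2, the anion exchanger genes Slc4a1, Slc26a4 and Slc4a9, the ammonia transporter gene Rhcg and the transcription factor gene Foxi1. They were chosen by name for their role in acid-base transport, by a rule that uses no values, but with earlier results of these data known, and all 10 were found among the 19505 genes with a named probe, each on 1 probe of the 22206 on the array. Total RNA of whole kidney was measured on Clariom S Mouse arrays of 1 colour, with 4 mice at 28 weeks of age and 4 at 8 weeks and 1 array per mouse. All 8 mice were NZBWF1, a cross of New Zealand Black with New Zealand White mice that is used as a model of lupus and its nephritis, and no treatment is given in the labels. The 2 groups therefore differ in age and in whatever stage of disease the mice had reached, which cannot be told apart. Replicates are numbered 6 to 9 at 28 weeks and 1 to 4 at 8 weeks, as in the labels. Levels are given as log2 values from robust multi-array averaging (RMA), and differences are 28 weeks minus 8 weeks on that scale.

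Intercalated cells lie among the principal cells of the connecting tubule and collecting duct, and they set the final acidity of urine. Type A cells secrete acid: a proton pump (V-ATPase) on the apical membrane moves protons into the tubule, and the exchanger AE1, encoded by Slc4a1, returns bicarbonate to the blood. Type B cells do the reverse, secreting bicarbonate through the apical exchanger pendrin, encoded by Slc26a4, and carrying the exchanger AE4, encoded by Slc4a9, on the basolateral side. Both types depend on the forkhead transcription factor Foxi1. In mouse and human the loss of several of these genes gives distal renal tubular acidosis.

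Because Foxi1 is known to act on genes of the pump and on Slc26a4, the 250 bases before the annotated start were searched for the forkhead core, TAAACA on the given strand or TGTTTA for the other strand. Promoter sequences of 7 of the 10 genes were in the RefSeq table used (build GRCm38.p6), namely Atp6v1b1, Atp6v0a4, Atp6v1g3, Atp6v1c2, Slc26a4, Foxi1 and Rhcg. The core was found in 1 of the 7, that of Atp6v1b1, and in 12.0% of all 32851 promoters in the table. The match begins 98 bases before the start of Atp6v1b1 and is in capitals below. The other 3 sequences shown are examples of windows in which no core was found. All 7 genes had lower means at 28 weeks, with or without the core. A match describes letters in a short window and is not a binding site.
Atp6v1b1, chr6:83742767-83743016, plus strand: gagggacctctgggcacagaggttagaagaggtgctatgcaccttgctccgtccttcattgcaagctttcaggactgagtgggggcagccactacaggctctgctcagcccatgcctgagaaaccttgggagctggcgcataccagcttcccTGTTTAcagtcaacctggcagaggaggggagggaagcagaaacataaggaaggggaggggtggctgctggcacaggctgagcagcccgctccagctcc
Atp6v1c2, chr12:17324731-17324980, minus strand: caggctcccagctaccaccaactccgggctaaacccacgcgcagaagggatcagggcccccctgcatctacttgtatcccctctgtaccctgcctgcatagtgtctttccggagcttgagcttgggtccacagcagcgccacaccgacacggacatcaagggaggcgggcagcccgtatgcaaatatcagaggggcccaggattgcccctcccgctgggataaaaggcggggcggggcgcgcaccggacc
Slc26a4, chr12:31559985-31560234, minus strand: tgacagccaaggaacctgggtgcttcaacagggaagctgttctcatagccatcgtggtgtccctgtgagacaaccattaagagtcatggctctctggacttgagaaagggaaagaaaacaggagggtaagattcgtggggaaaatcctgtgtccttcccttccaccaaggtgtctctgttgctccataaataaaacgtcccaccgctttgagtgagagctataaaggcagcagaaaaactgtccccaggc
Rhcg, chr7:79617658-79617907, minus strand: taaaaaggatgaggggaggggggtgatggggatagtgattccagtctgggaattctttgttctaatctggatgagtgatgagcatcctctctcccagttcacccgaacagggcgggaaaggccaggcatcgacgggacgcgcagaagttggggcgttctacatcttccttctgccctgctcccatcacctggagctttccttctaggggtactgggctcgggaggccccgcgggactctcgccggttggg

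None of the 10 genes passed the test across the array, and 9 of the 10 had a lower mean at 28 weeks. Over all probes 51.3% had a lower mean at 28 weeks. The test was limma's, adjusted by the Benjamini-Hochberg method over the 22206 probes with calls made under 0.05, and 0.968% of all probes passed it (0.522% lower and 0.446% higher at 28 weeks). At an unadjusted p under 0.05, limma gave 7 of the 10 as lower, Atp6v1b1, Atp6v0d2, Atp6v0a4, Atp6v1c2, Slc26a4, Slc4a9 and Rhcg, where 6.63% of all probes were lower by that rule. An unmoderated test with unequal variances passed none of the 10 after adjustment and 6 before it, all lower, where 5.49% of all probes were lower by that rule. The median log2 difference of the 10 genes was -0.465, beside -0.01 over all probes. The ages did not overlap in 3 of the 10, Atp6v0d2, Slc26a4 and Slc4a9, all lower at 28 weeks, as in 4.33% of all probes. In whole-kidney RNA, fewer intercalated cells and less RNA per cell cannot be told apart.

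**Figure D1:**
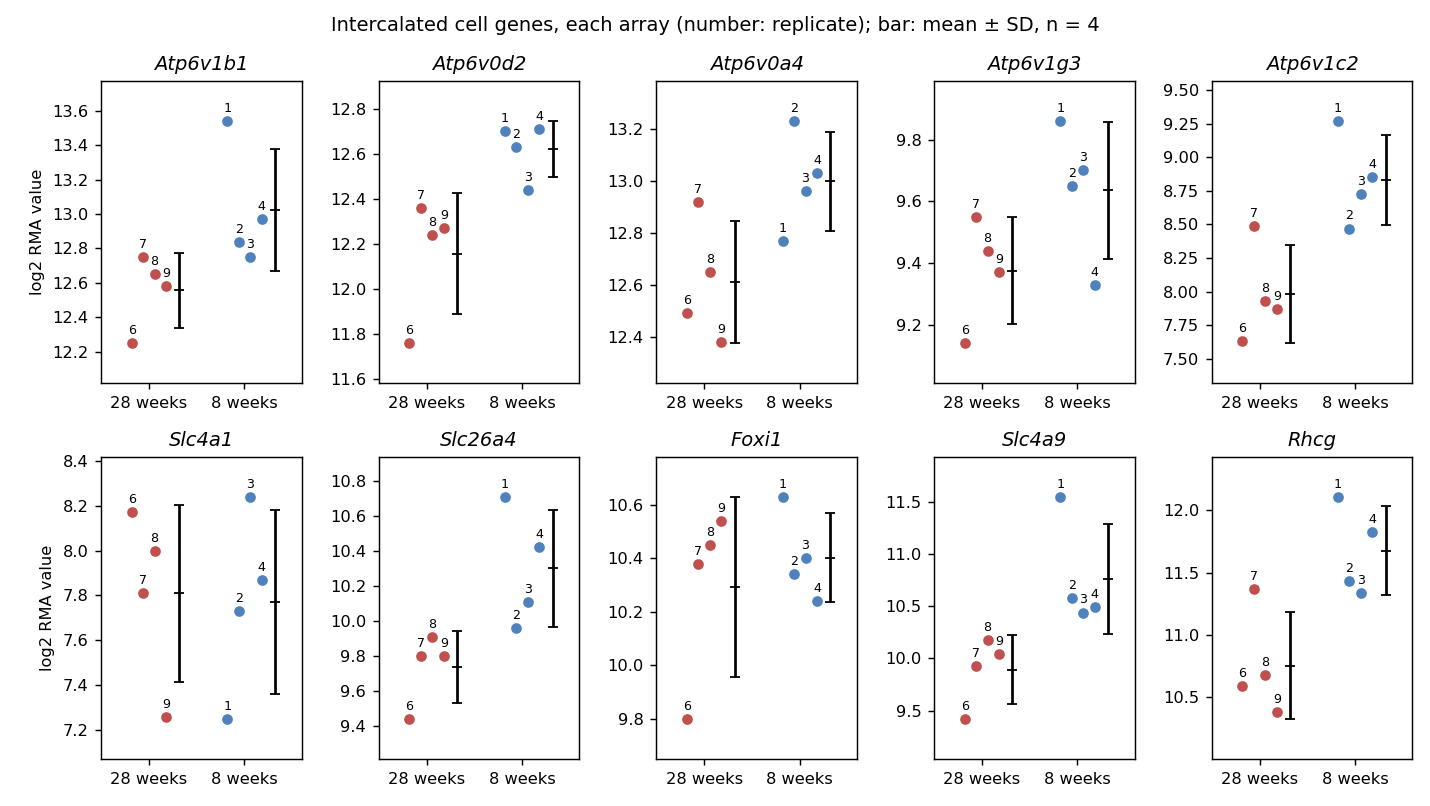
Log2 RMA value of each of the 10 intercalated cell genes in each array, with 28 weeks left of 8 weeks in every panel; points are arrays with their replicate number, bars are mean ± SD (n = 4 per age), and the vertical axes differ between panels. The 28-week points of Atp6v0d2, Slc26a4 and Slc4a9 lie below all 8-week points, while those of Slc4a1 and Foxi1 overlap them.

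The ammonia transporter gene Rhcg had the largest difference of the 10. Its product passes ammonia into the tubule, where it buffers the secreted acid. Rhcg read 10.59, 11.37, 10.68 and 10.38 in 28-week replicates 6 to 9, against 12.11, 11.43, 11.34 and 11.83 in 8-week replicates 1 to 4. Replicates 6, 8 and 9 lay below every 8-week array, and replicate 7 fell just inside the 8-week range. The means were 10.76 ± 0.43 at 28 weeks and 11.68 ± 0.36 at 8 weeks (SD, n = 4 each). The log2 difference was -0.92 with an SE of 0.25 (1.9-fold, limma adjusted p = 0.105). Without 28-week replicate 7 it was -1.13 and passed the test (limma adjusted p = 0.0143, within a range of 0.0143 to 0.372 over the alternatives).

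Atp6v1c2, whose product is the C2 form of the subunit that links the stalk of the pump to its membrane part, had the lowest p of the 10 genes. It read 7.63, 8.49, 7.93 and 7.87 in 28-week replicates 6 to 9, against 9.27, 8.47, 8.73 and 8.85 in 8-week replicates 1 to 4. As for Rhcg, only 28-week replicate 7 reached into the 8-week values. The log2 difference was -0.85 with an SE of 0.22 (1.8-fold, limma adjusted p = 0.102). Without 28-week replicate 7 it was -1.02 and passed (limma adjusted p = 0.0191, within a range of 0.0191 to 0.362 over the alternatives). Without that array 1.95% of all probes passed as lower, and Atp6v1c2 and Rhcg were the 2 of the 10 genes that did. The same 2 genes passed with array weights, where 1.57% of all probes were called lower, and with 8-week replicate 1 left out as well, where 2.04% were.

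The other 4 pump subunits had smaller differences. Atp6v1b1 encodes the B1 subunit of the ring that splits ATP, the form found in intercalated cells and the inner ear. It read 12.25, 12.75, 12.65 and 12.58 in 28-week replicates 6 to 9, against 13.54, 12.84, 12.75 and 12.97 in 8-week replicates 1 to 4. The highest 28-week value equalled the lowest 8-week value, and the log2 difference was -0.47 (95% interval -0.91 to -0.03, limma adjusted p = 0.300). Without 8-week replicate 1 it was -0.30 (limma adjusted p = 0.396, within a range of 0.197 to 0.554 over the alternatives). Atp6v0d2 encodes a subunit of the shaft that couples the ring to the membrane, and is also used by osteoclasts and some macrophages. It read 11.76, 12.36, 12.24 and 12.27 at 28 weeks, against 12.70, 12.63, 12.44 and 12.71 at 8 weeks. The ages did not overlap, and the log2 difference was -0.46 (95% interval -0.83 to -0.10, limma adjusted p = 0.204).

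Atp6v0a4 encodes the a4 subunit, the membrane part that forms the proton path in intercalated cells. It read 12.49, 12.92, 12.65 and 12.38 in 28-week replicates 6 to 9, against 12.77, 13.23, 12.96 and 13.03 in 8-week replicates 1 to 4, with a log2 difference of -0.39 (95% interval -0.75 to -0.02, limma adjusted p = 0.301). Its overlap came from 28-week replicate 7, which lay above 8-week replicate 1. Atp6v1g3, the gene of a kidney form of the stalk subunit G, read 9.14, 9.55, 9.44 and 9.37 at 28 weeks, against 9.86, 9.65, 9.70 and 9.33 at 8 weeks. Its log2 difference was -0.26, and the 95% interval of -0.61 to 0.09 included no difference (limma adjusted p = 0.512).

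Among the 10 genes, the type B exchanger genes Slc4a9 and Slc26a4 were lower in every 28-week array than in any 8-week array. So were 4.33% of all probes. Neither gene passed the test, and the type A gene Slc4a1 overlapped fully. Slc4a9 read 9.42, 9.93, 10.18 and 10.04 in 28-week replicates 6 to 9, against 11.55, 10.58, 10.44 and 10.49 in 8-week replicates 1 to 4. The log2 difference was -0.87 with an SE of 0.27 (limma adjusted p = 0.147). The highest value was that of 8-week replicate 1, and without both that array and 28-week replicate 7 it was -0.62 (limma adjusted p = 0.144, within a range of 0.0944 to 0.411 over the alternatives). Slc26a4 read 9.44, 9.80, 9.91 and 9.80 at 28 weeks, against 10.71, 9.96, 10.11 and 10.42 at 8 weeks, with a log2 difference of -0.56 (95% interval -0.99 to -0.14, limma adjusted p = 0.184).

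Slc4a1 read 8.17, 7.81, 8.00 and 7.26 in 28-week replicates 6 to 9, against 7.25, 7.73, 8.24 and 7.87 in 8-week replicates 1 to 4. The log2 difference was 0.04 with a 95% interval of -0.51 to 0.59 (limma adjusted p = 0.971). Levels up to 1.43-fold lower at 28 weeks are inside the interval, which reaches further on the higher side. Its sign turned negative under 7 of the 18 alternatives. Slc4a1 is also the band 3 gene of red blood cells. Of 13 erythroid markers 7 were measured and none passed by limma. One of them, the spectrin gene Sptb, was higher at an unadjusted p under 0.05, as were 8.36% of all probes. The log2 differences were 0.65 for Sptb and 0.27 for the membrane protein gene Epb42. In all, 6 of the 7 had a higher mean at 28 weeks, and their values over all arrays lay between 3.30 and 5.82. The mean shift of the 7 from their 8-week means was 0.09 to 0.18 at 28 weeks and -0.03 to 0.05 at 8 weeks. The part of red cells in the Slc4a1 values was not tested, and whether the type A and type B exchanger genes differ in their change was not tested either.

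Foxi1, the transcription factor gene, read 9.80, 10.38, 10.45 and 10.54 in 28-week replicates 6 to 9, against 10.63, 10.34, 10.40 and 10.24 in 8-week replicates 1 to 4. Of the 28-week arrays, 3 lay inside the 8-week range and replicate 6 lay below it. The log2 difference was -0.11 with a 95% interval of -0.52 to 0.30 (limma adjusted p = 0.860), and without 28-week replicate 6 its sign turned, at 0.05. Foxi1 and Slc4a1 had the smallest differences of the 10 genes.

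**Figure D2:**
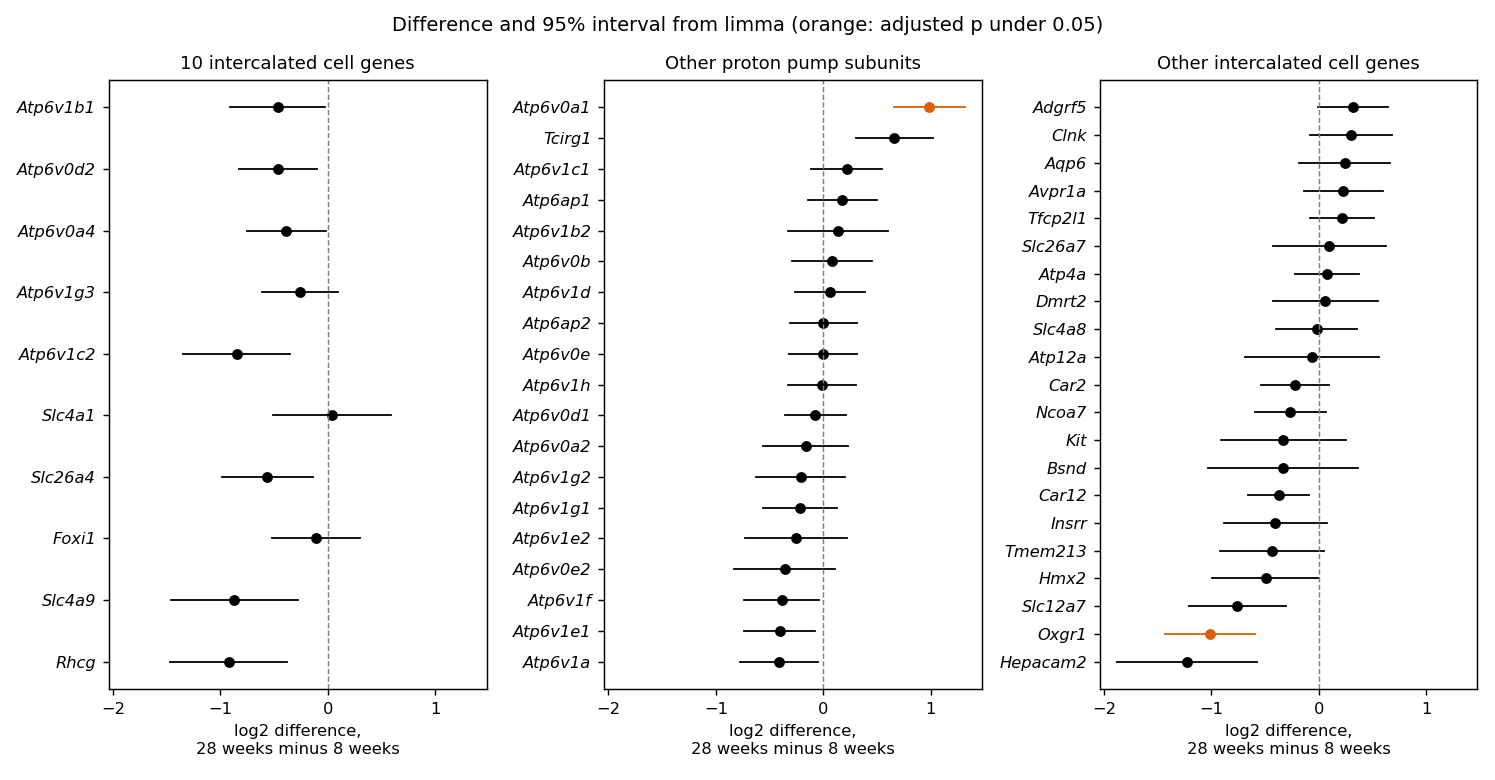
Log2 difference, 28 weeks minus 8 weeks, with its 95% interval from limma for the 10 intercalated cell genes (left), 19 other proton pump genes (middle) and 21 other intercalated cell genes (right); orange marks an adjusted p under 0.05 over all probes. Atp6v0a1 is the only gene marked on the positive side and Oxgr1 the only one on the negative side.

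Certain arrays stood out across the 10 genes. At 28 weeks, replicate 6 held the lowest value of 7 genes and replicate 9 that of the other 3, while replicate 7 held the highest value of 6. At 8 weeks, replicate 1 held the highest value of 7 genes. The mean shift of the 10 genes from their 8-week means was -0.73, -0.27, -0.39 and -0.55 in 28-week replicates 6 to 9, against 0.24, -0.12, -0.09 and -0.03 in 8-week replicates 1 to 4. Slc4a1 was set apart from the other 9 genes after its values were seen. Over the 8 arrays Pearson's r was positive in all 36 pairs of the 9, with a median of 0.75. It ranged from 0.10 between Atp6v0a4 and Foxi1 to 0.96 between Atp6v1b1 and Slc4a9. With the age means removed the median was 0.62 and r was positive in 32 of the 36 pairs. The negative pairs all held Atp6v0a4, at -0.15 with Atp6v1b1, -0.32 with Slc26a4, -0.11 with Foxi1 and -0.31 with Slc4a9. Slc4a1 had a negative r with 8 of the 9 others over the 8 arrays. These values describe 8 arrays that share 1 normalization and carry no test.

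The proton pump occurs in every cell, so each of the 5 intercalated cell subunits has a paralogue in general use. Atp6v0a1, which encodes the a1 form of the same subunit as Atp6v0a4, rose. It read 12.79, 12.49, 12.76 and 12.79 in 28-week replicates 6 to 9, against 11.44, 11.81, 11.83 and 11.80 in 8-week replicates 1 to 4. The ages did not overlap, and the log2 difference was 0.99 with an SE of 0.15 (1.98-fold, limma adjusted p = 0.0240). The call ended on leaving out any one of 8-week replicates 2, 3 and 4 or 28-week replicates 6, 8 and 9, with limma adjusted p up to 0.1. The remaining paralogues did not pass: the log2 difference was 0.13 for Atp6v1b2, -0.07 for Atp6v0d1, -0.22 for Atp6v1g1 and 0.22 for Atp6v1c1, with limma adjusted p of 0.847, 0.864, 0.591 and 0.566. Beside these stand -0.47 for Atp6v1b1, -0.46 for Atp6v0d2, -0.26 for Atp6v1g3 and -0.85 for Atp6v1c2. The difference between a gene and its paralogue was not tested.

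**Figure D3:**
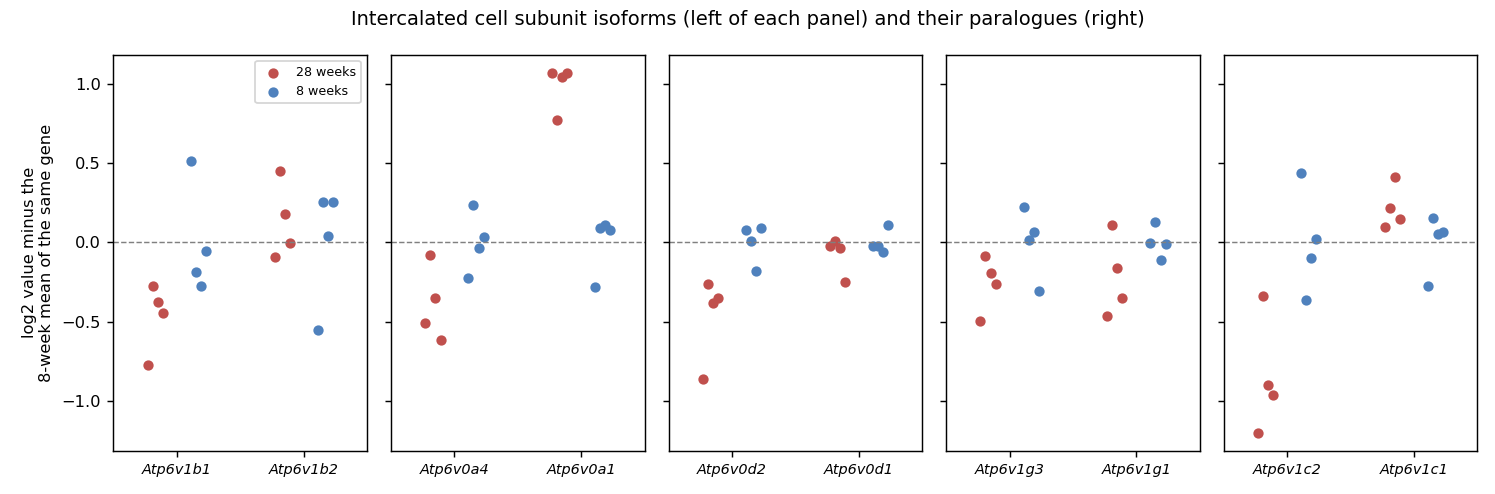
Log2 value minus the 8-week mean of the same gene for each intercalated cell subunit gene and its paralogue, 28 weeks left of 8 weeks for each gene; points are arrays. All 4 of the 28-week points of Atp6v0a1 lie above the 8-week points, while those of Atp6v0a4 have a mean below 0.

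Over the whole set of 19 measured pump genes other than the 5, 1 was higher (Atp6v0a1) and 0 lower by limma, against 0.446% and 0.522% of all probes. At an unadjusted p under 0.05 were 5, 3 of them lower, where 6.63% of all probes were lower and 8.36% higher. The 3 were Atp6v1a, Atp6v1e1 and Atp6v1f, with log2 differences of -0.415, -0.41 and -0.39, near those of Atp6v1b1 (-0.47) and Atp6v0a4 (-0.39). The others were Atp6v0a1 and Tcirg1 (0.66), both higher. The median log2 difference of the 19 was -0.01, with 11 negative and 8 positive. Their mean shift lay between -0.06 and 0.07 in the 28-week arrays and between -0.08 and 0.11 in the 8-week arrays.

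Among 21 other measured genes of intercalated cells 1 fell and none rose by limma, against 0.522% and 0.446% of all probes. At an unadjusted p under 0.05 were 4, all lower, where 6.63% of all probes were lower by that rule. The gene that fell was Oxgr1, the receptor for alpha-ketoglutarate on type B cells, through which pendrin-dependent exchange is known to be stimulated in mouse. Oxgr1 read 13.39, 14.03, 13.53 and 13.23 in 28-week replicates 6 to 9, against 14.31, 14.59, 14.60 and 14.72 in 8-week replicates 1 to 4. All 28-week values were below all 8-week values, and the log2 difference was -1.01 with an SE of 0.19 (2.01-fold, limma adjusted p = 0.0426). The call held without 28-week replicate 7 (adjusted p = 0.00291 by limma) and ended without any other single array, at adjusted p up to 0.147. It also ended with arrays centred on ribosomal protein genes. The median log2 difference of the 21 genes was -0.22, with 13 negative and 8 positive. In 3 of the 21 all 28-week values lay below all 8-week values, as in 4.33% of all probes. In 1 they lay above, Tfcp2l1, at 13.99 to 14.27 at 28 weeks and 13.74 to 13.96 at 8 weeks (log2 difference 0.22, limma adjusted p = 0.508). Differences were 0.32 for Adgrf5, 0.30 for Clnk, 0.24 for Aqp6, 0.10 for Slc26a7 and -0.02 for Slc4a8, none past the threshold.

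Hepacam2, a marker of intercalated cells, and Slc12a7, which encodes a potassium-chloride cotransporter of the basolateral side, did not pass with all arrays, and were singled out after their values were seen. Hepacam2 averaged 9.70 ± 0.45 at 28 weeks and 10.93 ± 0.54 at 8 weeks (limma adjusted p = 0.0845), and Slc12a7 averaged 10.29 ± 0.27 at 28 weeks and 11.05 ± 0.33 at 8 weeks (limma adjusted p = 0.106). Without 28-week replicate 7 both passed as lower beside Oxgr1, 3 of the 21 in all, against 1.95% of all probes. The carbonic anhydrase gene Car2, whose enzyme supplies the protons and bicarbonate, averaged 15.98 ± 0.16 at 28 weeks and 16.20 ± 0.13 at 8 weeks (limma adjusted p = 0.536).

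The proximal tubule takes back most filtered bicarbonate and makes ammonia from glutamine. Of 6 of its acid-base genes measured, 1 fell and 1 rose by limma, against 0.522% and 0.446% of all probes. An unadjusted p under 0.05 was reached by 5, 4 of them lower, where 6.63% of all probes were lower and 8.36% higher. All 28-week values lay below all 8-week values in 3, as in 4.33% of all probes, and above them in 1. Car14, a membrane-bound carbonic anhydrase gene, fell to 11.58 ± 0.77 at 28 weeks, against 13.52 ± 0.41 at 8 weeks (log2 difference -1.94, limma adjusted p = 0.0415). Slc38a3, which encodes the glutamine carrier that feeds ammonia production, rose to 10.73 ± 0.29 at 28 weeks, against 9.39 ± 0.40 at 8 weeks (log2 difference 1.34, limma adjusted p = 0.0310). Without 28-week replicate 7, where 1.95% of all probes were called lower, Pck1, which encodes an enzyme of glucose synthesis, passed as lower beside Car14. Slc38a3 passed as higher there, as did 3.63% of all probes. The Car14 call ended on leaving out any single array but 28-week replicate 7, and the Slc38a3 call on leaving out any but 28-week replicate 7 and 8-week replicate 2, at limma adjusted p up to 0.149 and 0.0991.

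Neighbouring cell types were measured by marker lists. Of 13 markers of principal cells, the other cells of the collecting duct, none passed by limma. Differences were negative in 6 and positive in 7, with a median of 0.05. An unadjusted p under 0.05 was reached by 6 (8.36% of all probes were higher and 6.63% lower by that rule). Of these, 4 were lower (Aqp3, Scnn1b, Scnn1g and Kcne1), while Fxyd4 and Kcnj1 were higher. All 28-week values lay below all 8-week values in 3, as in 4.33% of all probes, and above them in 2. The mean shift of the 13 was -0.22 to 0.16 at 28 weeks and -0.23 to 0.32 at 8 weeks. In it 8-week replicate 1 was highest, as it was for the 10 intercalated cell genes. The water channel gene Aqp3 averaged 10.29 ± 0.36 at 28 weeks and 11.33 ± 0.56 at 8 weeks (limma adjusted p = 0.112), and the sodium pump regulator gene Fxyd4 had a log2 difference of 0.86 (limma adjusted p = 0.170).

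All 5 connecting tubule markers had negative differences, as had 51.3% of all probes, with a median of -1.65. Those of Trpv5 and Klk1 were small, at -0.03 and -0.19, and their ages overlapped. An unadjusted p under 0.05 was reached by 3, all lower, where 6.63% of all probes were lower. In 2 the ages did not overlap, both lower, as in 4.33% of all probes. Past the threshold was 1, the calcium-binding protein gene S100g, where 0.522% of all probes were called lower. Without 28-week replicate 7, where 1.95% of all probes were called lower, S100g, the calcium-binding protein gene Calb1 and the sodium-calcium exchanger gene Slc8a1 passed as lower, 3 of the 5. Calb1 had the largest difference of the list with all arrays, -2.71 (limma adjusted p = 0.0752). The mean shift of the 5 was -2.20, -0.46, -1.51 and -1.46 in 28-week replicates 6 to 9, and -0.16 to 0.14 at 8 weeks, so replicate 6 was again the lowest and replicate 7 the highest. Of 6 thick ascending limb markers 5 had positive differences and none passed by limma. At an unadjusted p under 0.05 were 4, 1 of them lower, where 8.36% of all probes were higher and 6.63% lower. Their mean shift was 0.13 to 0.58 at 28 weeks and -0.25 to 0.17 at 8 weeks. The log2 difference of the limb's sodium-potassium-chloride cotransporter gene Slc12a1 was 0.99 (limma adjusted p = 0.0916) and that of Egf, a growth factor gene, was -0.85 (limma adjusted p = 0.0951). All 8 proximal tubule markers had negative differences, as had 51.3% of all probes, with a median of -0.47. Their mean shift was -0.72 to -0.29 at 28 weeks and -0.08 to 0.08 at 8 weeks. Of the 8, 6 had an unadjusted p under 0.05, where 6.63% of all probes were lower. The ages did not overlap in 4, all lower, as in 4.33% of all probes. Past the threshold was 1 of the 8, the organic anion transporter gene Slc22a6, against 0.522% of all probes called lower. Lrp2 of the proximal tubule averaged 18.05 at 28 weeks and 18.13 at 8 weeks, and Umod of the thick limb averaged 18.60 at 28 weeks and 18.37 at 8 weeks. Other markers were dim, such as Slc7a13 of the proximal tubule (4.87 to 5.12 at 28 weeks, 5.13 to 5.75 at 8 weeks) and Wt1 of podocytes (4.77 to 5.07 at 28 weeks, 4.87 to 5.65 at 8 weeks). The S100g and Slc22a6 calls held without 28-week replicate 7, and that of Slc22a6 also without 8-week replicate 2. The 2 calls ended on leaving out any other single array, at limma adjusted p up to 0.0968 for S100g and 0.123 for Slc22a6. Without 28-week replicate 7, Egf of the thick limb and Slc5a2 of the proximal tubule passed as lower, and Cldn16 of the thick limb as higher. Of all probes 1.95% were called lower and 3.63% higher without that array. Of 4 measured podocyte markers none passed by limma and 1, Podxl, was lower at an unadjusted p under 0.05, as were 6.63% of all probes. Podxl and Wt1 had log2 differences of -0.48 and -0.27.

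All 13 macrophage markers had positive differences, with a median of 2.22. None passed by limma with all arrays, and 12 had an unadjusted p under 0.05, all higher, against 8.36% of all probes. Without 28-week replicate 7, 12 passed as higher, as did 3.63% of all probes. Their mean shift was 3.56, 0.10, 2.97 and 2.68 in 28-week replicates 6 to 9, and -0.22 to 0.32 at 8 weeks. Replicate 6, which held the lowest value of 7 of the 10 intercalated cell genes, was the highest array, and replicate 7 was the lowest at 28 weeks. Lyz2, a lysozyme gene, and Fcgr3, an Fc receptor gene, had log2 differences of 4.54 and 1.16 (limma adjusted p = 0.0607 and 0.0506). Since Atp6v0d2 is also a gene of osteoclast-like macrophages, 6 markers of those were measured. None passed by limma and 1, Gpnmb, was higher at an unadjusted p under 0.05, as were 8.36% of all probes. The log2 differences were 0.40 for Gpnmb and 0.31 for Ctsk. The mean shift of the 6 was 0.02 to 0.21 at 28 weeks and -0.11 to 0.17 at 8 weeks. The part of infiltrating cells and of neighbouring tubule segments in the values of the 10 genes was not tested.

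**Figure D4:**
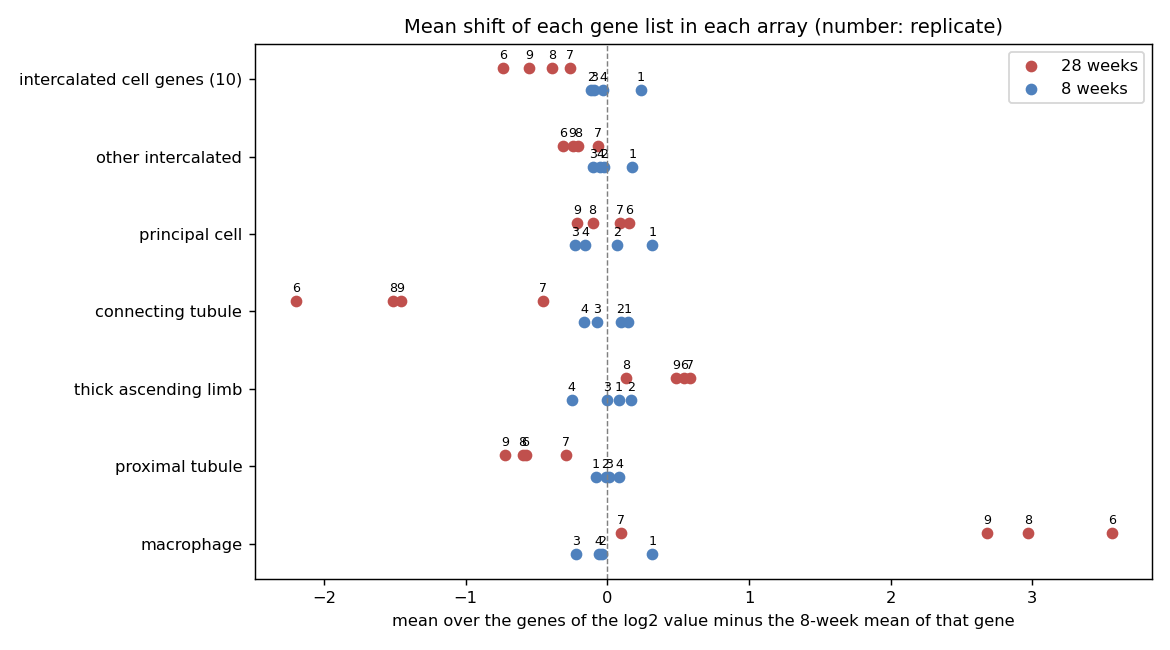
Mean over each gene list of the log2 level after subtracting each gene's 8-week mean, 1 point per array with its replicate number, 28 weeks above 8 weeks. The 10 intercalated cell genes lie between -0.73 and -0.27 at 28 weeks and between -0.12 and 0.24 at 8 weeks, and 28-week replicate 7 lies close to the 8-week arrays for the macrophage list.

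The genes whose values followed the mean profile of the 10 most closely over the 8 arrays were Slc35d1, Tinag, Hax1, Slit2 and Timp3, with Pearson's r of 0.993, 0.989, 0.986, 0.983 and 0.980. They were picked as the highest of all named genes, so the values are a description. Their log2 differences were -0.83, -0.64, -0.65, -0.47 and -0.68, and none passed by limma, with the lowest adjusted p at 0.0776 for Slc35d1, which encodes a nucleotide sugar transporter. All 5 had a limma unadjusted p under 0.05, where 6.63% of all probes were lower by that rule. Genes chosen to follow a profile that differs between the ages tend to differ too, so this count carries no evidence.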

How the data were processed

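Per the labels' protocols, Trizol was used for RNA and the target was biotinylated cRNA. The log2 values used were deposited by the authors as a table of 22206 probes in 8 arrays, and the submitters' processing notes name RMA, with no software, version or setting named. Its log base, not given either, was taken as 2 from the range of 2.31 to 19.89. RMA compresses folds of dim probes and gives no detection call. Array medians lay between 5.98 and 6.14, and lower quartiles between 4.16 and 4.44. Genes were named from the platform annotation, which gave 19572 probes 1 symbol, and the brightest probe stood for a gene with several. No batch information was used.

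All probes were fitted in limma 3.58.1 under R 4.3.3 (lmFit, then eBayes), without a filter or pairing, since no replicate number occurs at both ages. Tables and figures used Python 3.11.15 with pandas 2.3.3 and matplotlib 3.10.9. Intervals are 95% intervals of the moderated fit. The fit was tested on simulated data. The 10 genes and the 11 companion lists (125 entries, 108 of them measured on a named probe) were chosen with earlier results of these data known. The text names all 10 genes, the paralogue of each pump subunit, up to 4 members past the threshold of each list or else the 2 with the smallest p, and the 5 genes most like the mean profile. Genes named outside this rule were chosen after their values were seen. Each array was taken as 1 mouse, so precision is limited by having 4 per age. Alternatives were other normalizations, filters on dim probes, variance models and arrays left out.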

Additional observations from a re-analysis of the deposited data

Results flagged for a closer look

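In 13 of 74 groups of 4 arrays (37 named genes at 2 ages), 1 array lay far from the other 3 by Dixon's test at the 95% level. Chance gives about 1 in 20 for independent genes. Many of the 37 were chosen by p or by likeness in these data and vary together, so the count is a description. One of the 10 intercalated cell genes was among them, Slc4a9, at 11.55 in 8-week replicate 1 (10.44 to 10.58 in the other 3). The same array stood apart for Atp6v0a1 (11.44, below 11.80 to 11.83), Aqp3 (12.17, above 10.98 to 11.12), Tinag (15.07, above 14.75 to 14.77) and Slit2 (5.56, above 5.11 to 5.17). Tinag and Slit2 were chosen for following the mean profile of the 10 genes, in which that array was highest. Their flags therefore add nothing to it. At 28 weeks replicate 7 stood apart for Atp6v0a1 (12.49, below 12.76 to 12.79) and Fcgr3 (9.35, below 10.20 to 10.35). The others were S100g in 8-week replicate 2 (16.34), Sptb, an erythroid spectrin gene, in 28-week replicate 8 (5.15) and 8-week replicate 4 (4.65), Gpnmb in 28-week replicate 8 (5.26), Ctsk in 28-week replicate 9 (6.09) and Atp6v0d1 in 28-week replicate 9 (11.08).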

How the results depend on the processing

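The median log2 difference of the 10 intercalated cell genes was negative under all 18 alternatives, between -0.54 and -0.36, and each alternative moved it by less than the within-age SD of the genes' mean shift (0.18). The number of the 10 past the threshold was 2 with array weights and 2 when 8-week replicate 1 and 28-week replicate 7 were both left out, Rhcg and Atp6v1c2 each time, and between 0 and 2 with single arrays left out. With array weights limma adjusted p was 0.0431 for Rhcg and 0.0455 for Atp6v1c2. Probes past the threshold numbered 399 without the dimmer 50% of probes, 399 with the trend and robust options, 873 with array weights, 1384 without both arrays, and 25 to 1237 with single arrays left out, 215 with all. The unmoderated test with unequal variances called 0 probes, with 2568 probes and 6 of the 10 genes at an unadjusted p under 0.05, against 3329 probes and 7 of the 10 by limma. Under it the calls of Atp6v0a1, Oxgr1, Car14, Slc38a3, S100g and Slc22a6 ended too. The causes were not tested. Slc4a1 and Foxi1 changed sign between alternatives, with log2 differences from -0.14 to 0.22 and from -0.19 to 0.05, and the other 8 genes stayed negative in all. Averaging several probes of a gene gave no alternative, since each of the 10 had 1 probe. No paired analysis was possible because the ages share no replicate numbers.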
